A study of Homo sapiens with 30 samples.

Results

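The aminoacyl-tRNA synthetases are the enzymes that join each amino acid to its transfer RNA. They were followed here in lineages derived from MDA-MB-231, an established human triple-negative breast cancer line. The members were taken by gene symbol: a one-letter amino acid code followed by ARS, with or without a final 2, plus EPRS, FARSA and FARSB. This gave 37 genes of the 26475 in the deposited tables, 20 of them cytosolic and 17 mitochondrial (symbols ending in 2). All 37 passed the filter on low values in both tables.

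The series holds 30 RNA-seq libraries in 10 groups of 3, in 2 tables that were kept apart. The first table has lineages 22, 35 and 45, each in isolation and after co-culture. The second has isolated cells alone: Pop, as the labels call it, and lineages 03, 10 and 13. Every library came from wild-type cells grown in RPMI-1640 with 10% dialyzed serum and 2 mM glutamine, and no drug was given. Those of the numbered groups each came from a distinct lineage. Cells in isolation were grown for about 24 h and lysed in the dish with TRIzol. Cells of the co-culture groups were kept for 15 days in a mixture of 6 members, which was passed through a bottleneck every 3 days, and were then sorted by flow cytometry and extracted with another kit. Time in culture, sorting and RNA extraction therefore differ together with co-culture and cannot be told apart from it. Each numbered lineage is described as 1 clone, and what Pop consists of is not given in the sources used here. Nothing states that replicate libraries were grown as separate cultures, so p-values reflect the spread among these samples only, and that spread may be technical.

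Separate sets of synthetases work side by side in human cells. The cytosolic enzymes charge the transfer RNAs read by cytosolic ribosomes, and the mitochondrial enzymes, also made from nuclear genes, are imported to charge the transfer RNAs encoded by mitochondrial DNA. Glycine and lysine have a single gene each, GARS and KARS, which encodes both forms, and both were kept with the cytosolic set. EPRS is one polypeptide with glutamate and proline activities, FARSA and FARSB are the subunits of one phenylalanine enzyme, and EARS2 also charges the mitochondrial glutamine transfer RNA, which is then amidated. Several cytosolic enzymes sit in the multisynthetase complex with the scaffolds AIMP1, AIMP2 and EEF1E1. Many of the cytosolic genes are known targets of ATF4, the transcription factor of the amino acid and integrated stress responses, which binds the C/EBP-ATF response element, and WARS is known to be induced by interferon-gamma.

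That element was searched for as TGATGNAA on both strands (TTNCATCA on the other strand) in RefSeq promoters of build GRCh38.p14, 250 bases before to 50 bases after each gene start. Of the 37 members, 30 had an entry, 16 cytosolic and 14 mitochondrial. The letters occurred in 6 cytosolic and 1 mitochondrial promoter, against 3.62% of all 35116 promoters in the table. The stretches around the match are shown because the members that carry it are set beside the others in the comparisons that follow. Each is written 5′ to 3′ on the strand of the gene, with the match in capitals.
AARS, alanine enzyme, chr16:70289666-70289733, minus strand: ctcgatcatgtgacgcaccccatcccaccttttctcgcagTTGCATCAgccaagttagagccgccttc
CARS, cysteine enzyme, chr11:3057398-3057465, minus strand: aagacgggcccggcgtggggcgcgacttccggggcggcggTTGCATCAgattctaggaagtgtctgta
IARS, isoleucine enzyme, chr9:92293683-92293750, minus strand: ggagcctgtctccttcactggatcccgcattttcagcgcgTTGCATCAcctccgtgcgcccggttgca
MARS, methionine enzyme, chr12:57488024-57488091, plus strand: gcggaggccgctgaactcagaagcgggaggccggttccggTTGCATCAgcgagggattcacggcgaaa
NARS, asparagine enzyme, chr18:57621808-57621862, minus strand: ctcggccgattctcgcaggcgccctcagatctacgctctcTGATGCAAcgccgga
TARS, threonine enzyme, chr5:33440927-33440993, plus strand: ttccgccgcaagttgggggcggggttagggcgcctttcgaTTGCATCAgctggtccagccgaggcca
YARS2, mitochondrial tyrosine enzyme, chr12:32756067-32756134, minus strand: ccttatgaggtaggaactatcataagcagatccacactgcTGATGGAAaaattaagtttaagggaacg
In CARS, IARS, MARS, NARS and TARS the first base of the match lay within 14 bases of the gene start. It lay 187 bases before the start in AARS and 197 bases before it in YARS2. All the cytosolic matches had C at the free position of the motif. Across the family the genes are scattered over the genome, with a few neighbours (GENCODE v29 annotation, GRCh38). VARS (chr6:31777518-31795953) and VARS2 (chr6:30908242-30926459) lie 851058 bases apart, and EPRS and IARS2 lie 47443 bases apart on chromosome 1. HARS (chr5:140673904-140691862) and HARS2 (chr5:140691426-140699318) run in opposite directions and overlap by 437 bases. The libraries were stranded, but whether the counting used the strand is not given in the sources used here, so the split of reads within the overlap is uncertain. Overlap with genes outside the family was not examined.

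Values are given as CPM (counts scaled to a common library size), computed from the deposited estimated counts after TMM normalisation, which adjusts for differences in library make-up. The 18 libraries of the first table held 29817903 to 38843676 counts each and the 12 of the second 28088449 to 35356195. The line's mesenchymal markers were high in all libraries (VIM at 2530 to 6409 CPM in the first table and 2227 to 3838 CPM in the second). Of the genes listed as low in the line, ESR1 stayed at or under 0.0966 CPM, PGR at or under 0.318 CPM and CDH1 at or under 2.18 CPM. ERBB2, on the same list, was not low, at 69.3 to 98.9 CPM in the first table and 71.1 to 104 CPM in the second. EPCAM, also listed, ran from 4.33 to 18.5 CPM over both tables. The 3 co-culture libraries labelled lineage 35 differed from the isolated libraries of that lineage. Their log2 CPM correlated with isolated lineage 35 at a mean r of 0.924 across genes, against 0.964 with isolated lineage 45. With co-cultured lineages 22 and 45 it was 0.978 and 0.984. Isolated lineage 35 was also far from the other lineages. Its mean r was 0.923 and 0.942 with lineages 22 and 45 in isolation, and 0.921 and 0.927 in co-culture. Isolated lineages 22 and 45 correlated at 0.965. Which of the 2 lineage 35 groups is the unusual one was not tested. Results for lineage 35 in co-culture are therefore those of the libraries labelled so, and results for the other lineages are also given without them. The summed level of 5 leukocyte markers was 0.217 to 0.374 CPM in isolated and 1.75 to 2.64 CPM in co-cultured lineage 35, with CD3E at 0 in both groups. That of 3 endothelial markers was 0.166 to 0.249 CPM and 2.57 to 3.94 CPM in the same groups. Over the 4 groups of lineages 22 and 45 the sums ran from 1.18 to 2.69 CPM and from 2.37 to 11.8 CPM. MALAT1, a nuclear RNA used here as a sign of RNA handling, was 129 to 321 CPM in the isolated and 13.1 to 58.4 CPM in the co-cultured groups of the first table, and its part in the changes described for co-culture was not tested. In the second table MALAT1, NEAT1 (listed with it) or both were called higher in each of lineages 03, 10 and 13 than in Pop. Neither was called lower, and the part of RNA handling in those comparisons was not tested.

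Per kilobase of the principal transcript, the cytosolic enzymes were expressed well above the mitochondrial ones in every group. The median level ran from 51.6 to 72.8 CPM per kilobase for the cytosolic set and from 9.12 to 13.3 for the mitochondrial set over the 6 groups of the first table, and from 58.8 to 64.0 and from 9.18 to 11.6 over the 4 groups of the second. SARS, the serine enzyme, had the highest group mean among cytosolic members in all 6 groups of the first table (103 to 205 CPM per kilobase) and in Pop (137). TARS led in lineages 03 (170) and 10 (160), and KARS led in lineage 13 (133). FARSB was the lowest cytosolic member in every group, at 22.0 to 34.1 CPM per kilobase in the first table and 22.3 to 31.1 in the second. IARS2 was the highest mitochondrial member throughout (51.3 to 79.3 CPM per kilobase over both tables). PARS2, the proline enzyme, was the lowest mitochondrial member in 8 of the 10 groups, and VARS2 took that place in co-cultured lineages 35 (3.73) and 45 (3.89).

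The ratio of the highest to the lowest group mean had a median of 1.63 for cytosolic and 1.7 for mitochondrial members in the first table, and of 1.33 and 1.31 in the second. LARS varied least among cytosolic members of the first table (1.15) and VARS most (2.53), and HARS2 (1.22) and VARS2 (3.66) marked the same limits in the mitochondrial set. Between libraries of a group the median coefficient of variation was 6.03% for cytosolic and 5.73% for mitochondrial members in the first table and 5.17% and 6.19% in the second. In bulk RNA, fewer cells of a type and less RNA per cell cannot be told apart.

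The first question was whether the 2 sets move together when a lineage leaves isolation for the co-culture. Most synthetases were higher in co-culture in lineages 22 and 45, in both compartments. In lineage 35 members of both sets went either way, as did genes at large. A gene is counted as changed where its adjusted p (edgeR quasi-likelihood test, Benjamini-Hochberg over all genes tested) was under 0.05. In lineage 22, 13 of 20 cytosolic members rose and 1 fell, and 10 of 17 mitochondrial members rose and 1 fell, with 56.9% of all genes called, 27.0% higher and 30.0% lower. In lineage 45, 14 cytosolic members rose and 0 fell, and 9 mitochondrial members rose and 1 fell, with 41.8% of all genes called, 18.6% higher and 23.2% lower. This 0, and each later count of 0 over a whole set, was also 0 at an unadjusted edgeR p under 0.05 and under DESeq2. In lineage 35, 11 cytosolic members rose and 5 fell, and 7 mitochondrial members rose and 5 fell, with 65.5% of all genes called, 32.7% higher and 32.9% lower. The mitochondrial counts there were not far from these shares. The median log2 change was 0.34 for the cytosolic and 0.29 for the mitochondrial set in lineage 22 (all genes -0.04), 0.24 and 0.24 in lineage 45 (all genes -0.03), and 0.20 and 0.14 in lineage 35 (all genes 0.01). Without the libraries labelled lineage 35 in co-culture, lineage 22 had 14 cytosolic rises and 1 fall with 10 mitochondrial rises and 1 fall, and lineage 45 had 14 and 0 with 9 and 0. The count in lineage 45 depended on single libraries: it was 6 cytosolic rises without isolation replicate 2 and 7 without co-culture replicate 2, and 4 mitochondrial rises without isolation replicate 1 and 5 without isolation replicate 2. In lineage 35 the mitochondrial rises came to 4 without isolation replicate 2 or without co-culture replicate 2, and the mitochondrial falls to 3 without co-culture replicate 3.

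**Figure D1:**
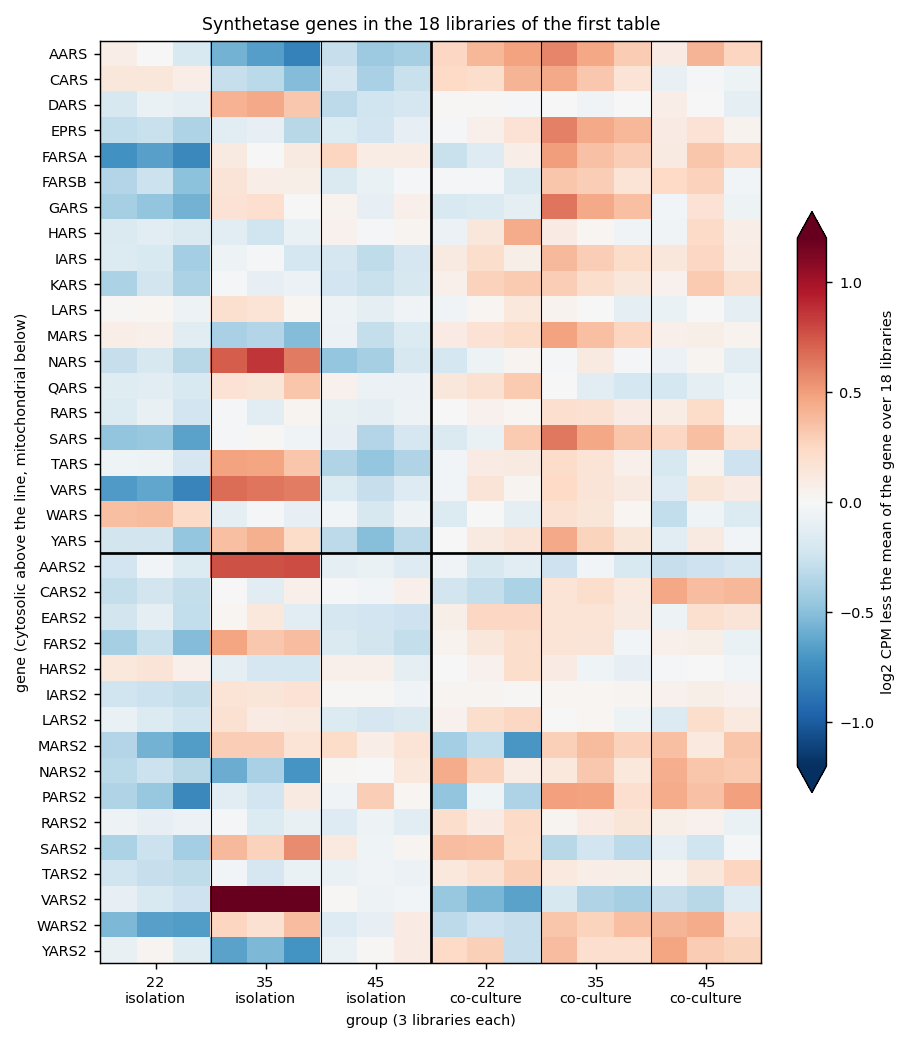
Each cell shows the log2 CPM of 1 of 36 members in 1 of the 18 libraries of the first table, less that gene's mean over the 18. Cytosolic members stand above the line and mitochondrial members below it, and the columns run from the isolated to the co-cultured groups of lineages 22, 35 and 45. VARS2 in isolated lineage 35 stands out, at 45.8 to 49.7 CPM.

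In all, 6 cytosolic and 3 mitochondrial members rose in all 3 lineages, where 7.77% of all genes did so. The cytosolic ones were AARS, EPRS, IARS, KARS, RARS and SARS, and the mitochondrial ones included NARS2 and TARS2. VARS2 was the single member that fell in all 3, where 10.6% of all genes did so. AARS, IARS, KARS and SARS kept their calls in every lineage under each alternative fit and with any one library left out. RARS lost its call in each lineage with some single libraries left out, TARS2 did so in lineages 35 and 45, and EPRS and NARS2 did so in lineage 45 only. The fall of VARS2 in lineage 45 was lost under DESeq2 (adjusted p = 0.077), under 4 of the other fits and with 5 of the 6 libraries left out.

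AARS, the alanine enzyme, was 185, 176 and 154 CPM in isolated lineage 22 and 208, 231 and 245 CPM in co-culture. In lineage 35 it was 118, 111 and 100 CPM in isolation and 262, 242 and 216 CPM in co-culture, and in lineage 45 it was 145, 129 and 133 CPM and then 187, 232 and 209 CPM. The groups did not overlap in any lineage, and lineage 35, which had the lowest isolated values, had co-culture values close to those of the other lineages. EPRS was 260, 264 and 246 CPM in isolated and 316, 332 and 358 CPM in co-cultured lineage 22, 291, 297 and 253 CPM against 485, 436 and 419 CPM in lineage 35, and 284, 272 and 297 CPM against 342, 359 and 328 CPM in lineage 45. It too was higher in all co-culture libraries of each lineage. Called members without overlap were 25 of 25 in lineage 22, 28 of 28 in lineage 35 and 21 of 24 in lineage 45. No share over all called genes stands beside these counts, so they show nothing particular to the family. Members with printed library values were mostly picked by smallest p, so a lack of overlap adds no support to their calls.

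**Figure D2:**
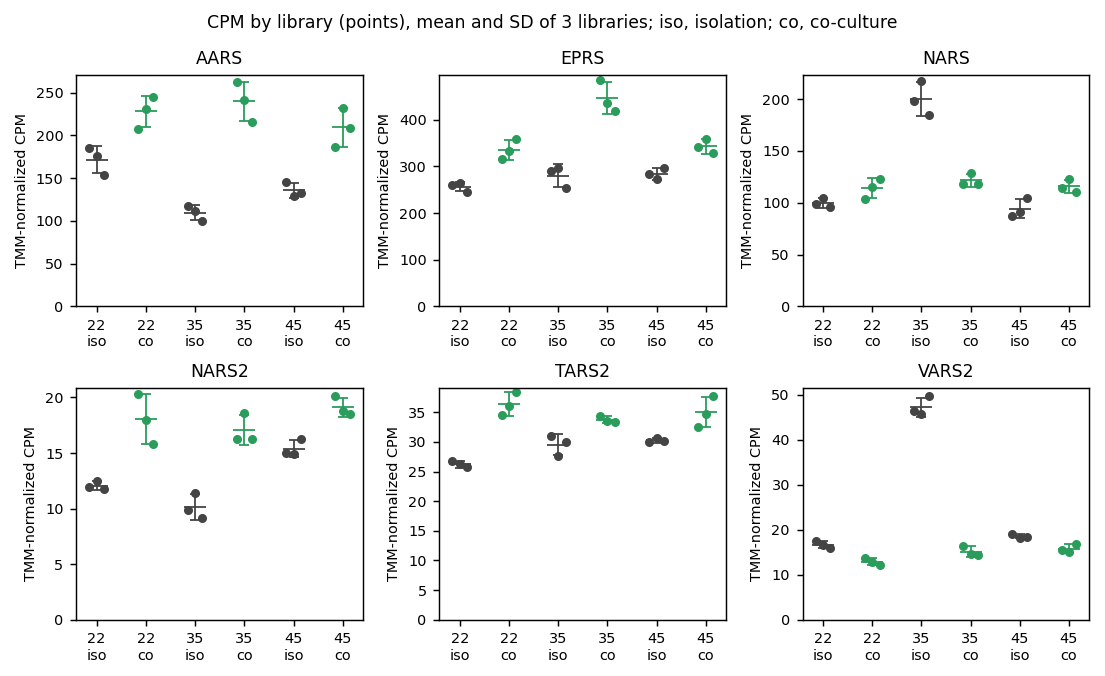
CPM of AARS, EPRS, NARS, NARS2, TARS2 and VARS2 in every library of the first table, with points for libraries and the mean with its SD (n = 3) for each group. The co-culture groups of AARS and EPRS lie above the isolated groups in each lineage, and the isolated lineage 35 stands alone for NARS and VARS2.

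In lineage 22 the largest rise in the family was that of VARS, the cytosolic valine enzyme, and its mitochondrial counterpart VARS2 moved the other way. VARS was 142, 148 and 131 CPM in isolation and 223, 254 and 233 CPM in co-culture, 1.69-fold higher (log2 0.75 ± 0.08 SE, adjusted p = 3.5e-07). FARSA, the catalytic subunit of the phenylalanine enzyme, went from 70.4, 74.4 and 68.1 CPM to 96.6, 105 and 123 CPM (0.61 ± 0.09, adjusted p = 1.4e-05). KARS went from 161, 180 and 161 CPM to 219, 254 and 261 CPM (0.55 ± 0.08, adjusted p = 1.5e-05). These groups were fully separate for the valine, phenylalanine and lysine enzymes. WARS, the tryptophan enzyme, was the single cytosolic member that fell: it was 269, 272 and 245 CPM in isolation and 186, 209 and 194 CPM in co-culture (-0.42 ± 0.08, adjusted p = 0.00016). The other cytosolic rises had log2 changes from 0.19 (RARS) to 0.55 (SARS), and CARS, DARS, LARS, MARS, NARS and TARS did not pass the test (0.05 to 0.19).

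Among the mitochondrial enzymes of lineage 22, SARS2, for serine, went from 17.0, 18.5 and 16.6 CPM to 28.6, 28.4 and 25.7 CPM (0.67 ± 0.09, adjusted p = 5e-06), and TARS2, for threonine, from 26.8, 26.2 and 25.7 CPM to 34.5, 36.0 and 38.5 CPM (0.47 ± 0.08, adjusted p = 3.2e-05). Co-culture libraries were higher than every isolated library for both genes. NARS2, FARS2, EARS2, LARS2, WARS2, IARS2 and RARS2 also rose, with log2 changes of 0.25 to 0.58. VARS2 fell by 0.37 on the log2 scale, from 17.6, 16.6 and 15.9 CPM to 13.8, 12.9 and 12.1 CPM (SE 0.09, adjusted p = 0.00135).

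In lineage 35 the changes were larger and went both ways. AARS had the largest cytosolic rise, 2.18-fold (1.12 ± 0.10, adjusted p = 5.5e-09). MARS, for methionine, was 179, 183 and 163 CPM in isolation and 327, 301 and 279 CPM in co-culture (0.79 ± 0.08, adjusted p = 4.6e-08), and EPRS rose by 0.67 ± 0.08 (adjusted p = 3.6e-07). NARS, for asparagine, had the largest cytosolic fall: it was 198, 217 and 185 CPM in isolation and 118, 129 and 118 CPM in co-culture (-0.72 ± 0.09, adjusted p = 4.7e-07). With NARS fell VARS (-0.48), DARS (-0.41), QARS (-0.33) and TARS (-0.28), while CARS (0.69), SARS (0.50), IARS (0.40), GARS (0.37), FARSA (0.31), KARS (0.28), RARS (0.20) and WARS (0.20) rose. FARSB, HARS, LARS and YARS did not pass the test (-0.15 to 0.18).

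VARS2 had the largest change of any member in a co-culture comparison. It was 46.4, 45.8 and 49.7 CPM in isolated lineage 35 and 16.5, 14.7 and 14.3 CPM in co-culture, 3.11-fold lower (-1.64 ± 0.09, adjusted p = 1.8e-12). AARS2, for alanine, was 42.3, 42.4 and 42.9 CPM and then 20.9, 24.4 and 22.0 CPM (-0.92 ± 0.08, adjusted p = 2.7e-09), so the mitochondrial alanine enzyme fell where the cytosolic one rose. SARS2 was 28.9, 26.8 and 32.8 CPM and then 17.5, 18.8 and 17.8 CPM (-0.71 ± 0.09, adjusted p = 1.1e-06), the opposite of its rise in lineage 22. IARS2 (-0.14) and FARS2 (-0.29) also fell. FARS2 lost its call without co-culture replicate 3, and IARS2 lost it with any one of the 6 libraries left out, with RLE factors, without a filter, with the replicate block (adjusted p = 0.055) and with the compared groups alone. YARS2 (0.89), NARS2 (0.75), PARS2 (0.48), TARS2 (0.19), CARS2 (0.18) and RARS2 (0.18) rose. The calls of TARS2, CARS2 and RARS2 were lost without a filter and with 3 of the 6 libraries left out for TARS2 (isolation replicate 2, co-culture replicates 1 and 2), 4 for CARS2 (replicates 1 and 2 of both groups) and 4 for RARS2 (replicates 2 and 3 of both groups). Those of CARS2 and RARS2 were also lost with the compared groups alone, and that of RARS2 with the stricter filter and with the replicate block (adjusted p = 0.054).

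In lineage 45 the changes were smaller and nearly all upward. AARS rose 1.54-fold (0.63 ± 0.10, adjusted p = 5.6e-05). KARS was 179, 174 and 183 CPM in isolation and 217, 260 and 240 CPM in co-culture (0.42 ± 0.08, adjusted p = 0.00042). IARS was 450, 419 and 450 CPM and then 570, 614 and 550 CPM (0.39 ± 0.08, adjusted p = 0.0007), and SARS was 255, 214 and 237 CPM and then 323, 349 and 305 CPM (0.47 ± 0.11, adjusted p = 0.00188). Isolated and co-cultured libraries did not overlap for any of the 4. The other cytosolic rises had log2 changes of 0.19 (RARS) to 0.36 (YARS), and the libraries of the 2 conditions overlapped for FARSB and VARS. CARS2, for cysteine, led the mitochondrial set: it was 42.7, 42.2 and 45.0 CPM and then 59.5, 55.5 and 56.7 CPM (0.40 ± 0.07, adjusted p = 0.00018). WARS2, for tryptophan, was 17.8, 18.6 and 21.3 CPM and then 26.4, 27.1 and 22.9 CPM (0.40 ± 0.09, adjusted p = 0.00142). YARS2, EARS2, NARS2, LARS2, FARS2 and TARS2 also rose (0.21 to 0.34), with overlapping libraries for LARS2, and VARS2 fell by 0.23 on the log2 scale. The calls of FARS2, LARS2 and TARS2 were lost without any one isolation library, without co-culture replicate 2 and with the compared groups alone. FARS2 also lost its call without co-culture replicate 1, without a filter and with the stricter filter. TARS2 also lost it without a filter, and LARS2 and TARS2 without co-culture replicate 3. YARS2 and NARS2 lost theirs without isolation replicate 1 or 2 or co-culture replicate 1.

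**Figure D3:**
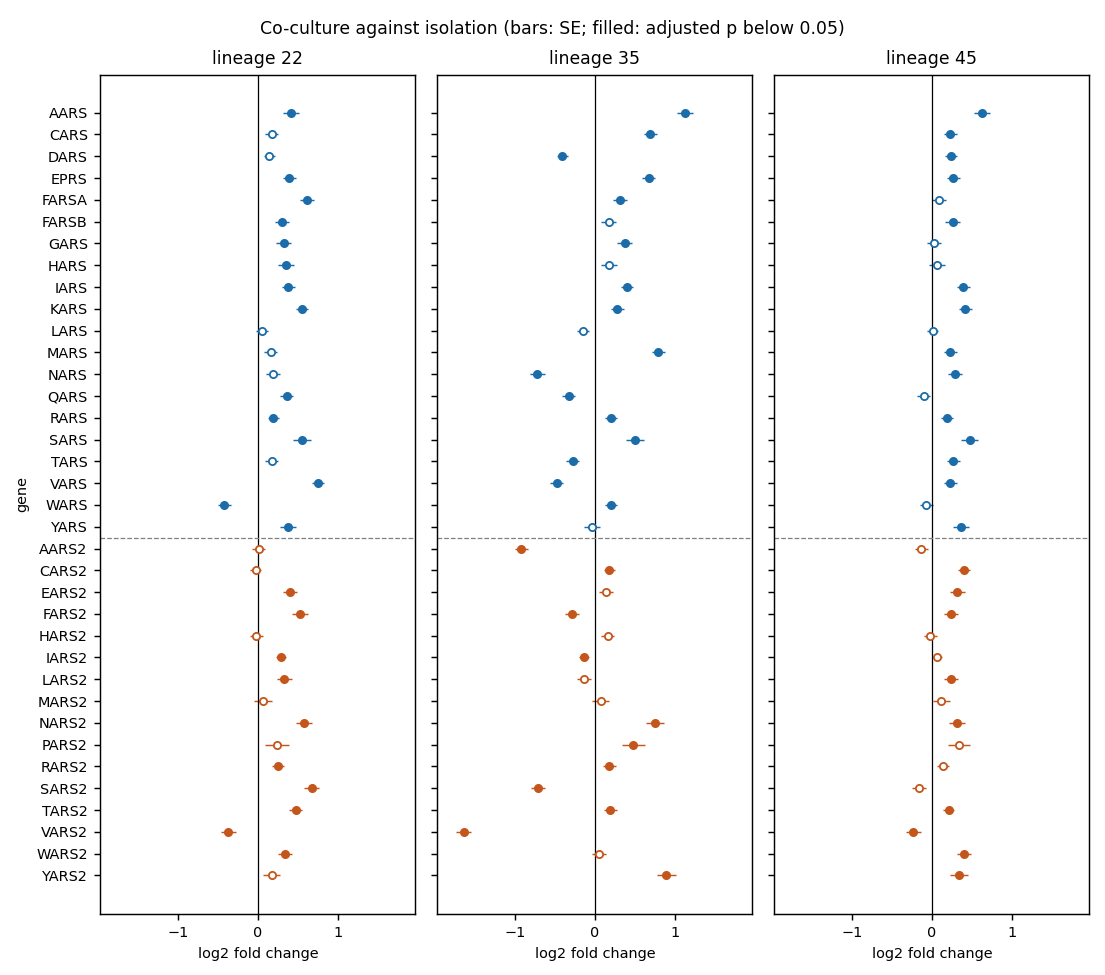
Log2 fold change of 36 members from isolation to co-culture in lineages 22, 35 and 45, with its SE, in blue for cytosolic and orange for mitochondrial members. Filled points have an adjusted p under 0.05. VARS2 lies farthest from 0, at -1.64 in lineage 35, and AARS is the highest member there at 1.12.

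Summed over the set, the cytosolic enzymes took 3562 to 3938 CPM in isolated and 4373 to 4865 CPM in co-cultured lineage 22, 4458 to 4780 and 4922 to 5634 CPM in lineage 35, and 3675 to 3961 and 4393 to 4894 CPM in lineage 45. The mitochondrial sum was 552 to 582 and 686 to 710 CPM in lineage 22 and 651 to 652 and 727 to 744 CPM in lineage 45. In lineage 35 it was 729 to 746 CPM in isolation and 695 to 717 CPM in co-culture. The mitochondrial share of the family's CPM was 13.2% to 14.2% in isolated and 11.3% to 12.4% in co-cultured lineage 35, with no overlap. The share overlapped between conditions in lineage 22 (12.9% to 13.4% and 12.4% to 13.7%) and in lineage 45 (14.1% to 15.1% and 13.2% to 14.2%).

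The difference in response between lineages was tested in the same model. The response to co-culture differed over the 3 lineages for 13 cytosolic and 10 mitochondrial members, where 55.2% of all genes did so. Between lineages 22 and 35 the response differed for 11 cytosolic and 8 mitochondrial members (49.6% of all genes), between 35 and 45 for 10 and 8 (42.3%), and between 22 and 45 for 4 and 2 (17.3%). SARS2 had the largest difference between lineages 22 and 35, a log2 change 1.37 higher in lineage 22 (adjusted p = 2.6e-08). SARS2 also differed between lineages 22 and 45 (0.83, adjusted p = 0.0002), where the isolated values were 24.0, 21.3 and 22.6 CPM and the co-culture values 20.4, 18.7 and 21.7 CPM in lineage 45. The response of VARS2 was 1.41 lower on the log2 scale in lineage 35 than in 45 (adjusted p = 8.8e-09), and that of NARS 1.01 lower (adjusted p = 1.2e-06).

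Blocks of neighbouring genes moved together in these comparisons, so each member was set beside the median log2 change of the 50 tested genes around it, 25 on either side. Positions were known for 94.1% of the genes tested in the first table and 93.6% in the second. In lineage 35 the falls on chromosomes 6 and 18 lay in windows that also had lower medians: -0.72 around VARS, -0.74 around VARS2, -0.58 around AARS2, -0.66 around FARS2 and -0.76 around NARS. MARS (0.70) and YARS2 (0.60) lay in windows on chromosome 12 with higher medians. The windows of AARS (-0.09), SARS (-0.11) and SARS2 (-0.01) were near 0, while these genes changed by 1.12, 0.50 and -0.71.

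Of the 28 members called in lineage 35, 23 had the sign of their window, against 69.4% of all genes called there. It was 11 of 25 in lineage 22 (63.2% of all genes called) and 10 of 24 in lineage 45 (59.2%). The median of the member's change less that of its window was 0.29 for cytosolic and 0.39 for mitochondrial members in lineage 22. The same medians were 0.26 and 0.22 for lineage 45 and 0.16 and 0.09 for lineage 35. The part of the neighbourhood in the members' changes was not tested further.

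**Figure D4:**
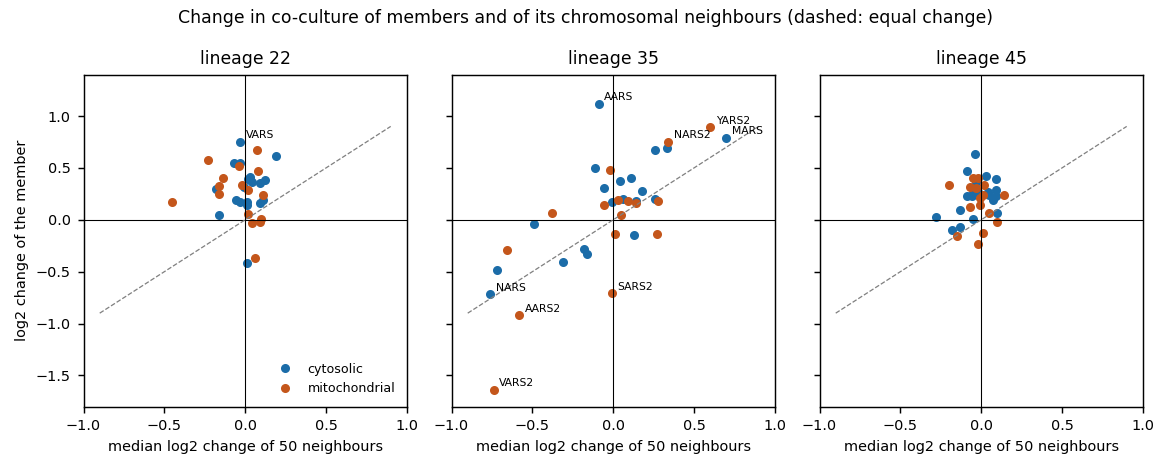
Log2 change of 36 members from isolation to co-culture (vertical) against the median log2 change of the 50 genes around each (horizontal), for lineages 22, 35 and 45. In lineage 35 VARS2, NARS and AARS2 lie low in windows of -0.74, -0.76 and -0.58, while AARS lies at 1.12 with a window of -0.09.

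The lineages were also compared with each other within a condition. In isolation, lineage 35 was set apart by NARS, VARS and VARS2. VARS was 362, 356 and 348 CPM in isolated lineage 35 and 203, 188 and 205 CPM in lineage 45, and lineage 22 was lower still at 131 to 148 CPM. Set against lineage 35, lineage 22 had 2.53-fold lower VARS (-1.34 ± 0.08, adjusted p = 2.2e-11), 2.83-fold lower VARS2 (-1.50 ± 0.09, adjusted p = 5.6e-12) and 2.01-fold lower NARS (SE of the log2 difference 0.09, adjusted p = 3.8e-09). NARS was 99.2, 105 and 95.4 CPM in lineage 22 and 87.3, 90.8 and 105 CPM in lineage 45, so these did not separate, and both lay below the 185 CPM of the lowest lineage 35 library. VARS2 was 19.0, 18.1 and 18.5 CPM in isolated lineage 45, 2.55-fold below lineage 35 (adjusted p = 3.5e-11), and NARS was 2.12-fold below it (adjusted p = 1.9e-09). The window medians of lineage 22 against 35 were -0.65 for VARS, -0.72 for VARS2 and -0.72 for NARS. These were the members that reached a 2-fold difference between lineages.

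Counting over the family, lineage 22 against 35 in isolation had 4 cytosolic members higher and 11 lower and 3 mitochondrial members higher and 11 lower (63.6% of all genes called, 32.2% higher and 31.4% lower). Lineage 22 against 45 had 4 cytosolic higher and 5 lower and 0 mitochondrial higher and 9 lower (38.4% called, 18.6% higher and 19.8% lower). Lineage 35 against 45 had 7 higher and 2 lower, and 8 higher and 3 lower (51.8% called, 24.3% and 27.6%). FARSA was 70.4 to 74.4 CPM in isolated lineage 22 and 124 to 139 CPM in lineage 45 (-0.86 ± 0.09, adjusted p = 2.8e-07), in a window of -0.39. MARS2, for methionine, was lower in lineage 22 than in lineage 45 by 0.68 in isolation and by 0.73 in co-culture on the log2 scale, where its windows were at -0.07 and -0.09. PARS2 and WARS2 were also called lower in lineage 22 in both conditions, by 0.62 and 0.57 in isolation and by 0.72 and 0.64 in co-culture.

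In co-culture the lineages were closer to each other. Lineage 22 against 35 had 1 cytosolic member higher and 6 lower and 1 mitochondrial member higher and 5 lower (31.1% of all genes called, 15.6% higher and 15.5% lower). Lineage 22 against 45 had 3 cytosolic and 6 mitochondrial members called (25.2%), and the 3 cytosolic calls came to 5 under DESeq2 and to 1 with the compared groups alone. Lineage 35 against 45 had 7 cytosolic members higher and 0 lower and 0 mitochondrial members higher and 1 lower (12.7% called, 6.42% higher and 6.28% lower). The 7 were GARS (0.46), EPRS (0.38), CARS (0.37), MARS (0.31), YARS (0.31), WARS (0.29) and TARS (0.28), and the 1 was CARS2 (-0.25). Without lineage 35 co-culture replicate 1 the 7 came to 3, without its replicate 2 or without lineage 45 co-culture replicate 1 to 4, and with the compared groups alone to 3. SARS2 changed its order with the condition: lineage 22 was below lineages 35 and 45 in isolation (-0.76 and -0.38) and above them in co-culture (0.61 and 0.45).

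In the second table each numbered lineage was compared with Pop, and the 3 comparisons share the 3 Pop libraries. NARS was higher in all 3 lineages than in Pop. The medians of the 2 sets, given below, varied from lineage to lineage, and the difference between the sets was not tested. NARS was 164, 146 and 149 CPM in Pop, 280, 226 and 237 CPM in lineage 03, 249, 256 and 252 CPM in lineage 10 and 193, 208 and 204 CPM in lineage 13. No numbered library overlapped with Pop. Called members without overlap were 15 of 16 in lineage 03, 14 of 14 in lineage 10 and 16 of 19 in lineage 13. Here too a lack of overlap adds no support to the calls, and no share over all called genes stands beside these counts. The log2 differences of NARS were 0.69 ± 0.08, 0.72 ± 0.08 and 0.40, in windows of 0.47, 0.43 and 0.35. No member differed by 2-fold in this table.

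Lineage 03 had 6 cytosolic members higher and 5 lower than Pop, and 1 mitochondrial member higher and 4 lower (48.7% of all genes called, 23.2% higher and 25.5% lower). The medians were 0.08 for the cytosolic and -0.10 for the mitochondrial set (all genes -0.03). NARS was 1.62-fold higher (adjusted p = 1.7e-05). TARS, for threonine, was 830, 708 and 664 CPM in lineage 03 and 584, 462 and 436 CPM in Pop (0.57 ± 0.11, adjusted p = 0.00076). GARS was 414, 399 and 362 CPM against 296, 305 and 286 CPM (0.40 ± 0.07, adjusted p = 0.00028), and FARSB was 77.1, 76.9 and 70.9 CPM against 117, 102 and 94.6 CPM (-0.48 ± 0.08, adjusted p = 0.0003). Lineage 03 and Pop did not overlap for TARS, GARS or FARSB. YARS2 was 18.7, 18.8 and 20.9 CPM against 28.1, 28.1 and 25.2 CPM in Pop (-0.48 ± 0.08, adjusted p = 0.00035). SARS2 was 18.2, 18.3 and 17.0 CPM against 25.5, 23.5 and 22.0 CPM (-0.41 ± 0.08, adjusted p = 0.00113), and PARS2 was 5.17, 5.91 and 6.07 CPM against 6.38, 8.87 and 8.66 CPM (-0.48 ± 0.14, adjusted p = 0.0104). All 3 mitochondrial enzymes were lower in every lineage 03 library. AARS2 (0.26) was the 1 mitochondrial member called higher, and no mitochondrial member was called higher with the compared groups alone.

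Lineage 10 had 6 cytosolic members higher and 2 lower than Pop, and 5 mitochondrial members higher and 1 lower (42.3% of all genes called, 18.8% higher and 23.5% lower). The medians were 0.02 and 0.18 (all genes -0.02). After NARS (1.65-fold, adjusted p = 1.7e-05) came LARS, for leucine, at 310, 302 and 317 CPM against 266, 226 and 217 CPM in Pop (0.39 ± 0.09, adjusted p = 0.00287). TARS was 719, 676 and 676 CPM in lineage 10 (0.48 ± 0.11, adjusted p = 0.00303), and DARS, for aspartate, was 170, 174 and 174 CPM against 153, 134 and 130 CPM (0.31 ± 0.07, adjusted p = 0.00325). CARS2 was 72.3, 73.4 and 75.4 CPM against 44.8, 45.6 and 40.5 CPM in Pop (0.76 ± 0.07, adjusted p = 2.4e-06). MARS2 was 30.6, 27.9 and 27.3 CPM against 15.8, 18.1 and 18.7 CPM (0.71 ± 0.09, adjusted p = 2.6e-05). Both stood clear of Pop in every library. YARS2 was 23.5, 22.3 and 20.4 CPM (-0.30 ± 0.08, adjusted p = 0.0103), a call lost without lineage 10 replicate 3. The mitochondrial count moved with single libraries, from 3 higher without lineage 10 replicate 2 or 3 to 8 higher without Pop replicate 1, and the cytosolic falls from 1 without lineage 10 replicate 3 to 4 without Pop replicate 3.

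Lineage 13 had 3 cytosolic members higher and 7 lower than Pop, and 7 mitochondrial members higher and 2 lower (45.2% of all genes called, 21.0% higher and 24.2% lower). The medians were -0.14 for the cytosolic and 0.15 for the mitochondrial set (all genes -0.01). VARS was 328, 318 and 307 CPM against 205, 230 and 224 CPM in Pop (0.53 ± 0.07, adjusted p = 3.6e-05), and KARS was 262, 254 and 285 CPM against 222, 201 and 182 CPM (0.40 ± 0.08, adjusted p = 0.00088). YARS, for tyrosine, was 136, 137 and 136 CPM against 192, 188 and 178 CPM (-0.45 ± 0.07, adjusted p = 0.00026), and MARS was 159, 162 and 160 CPM against 203, 196 and 192 CPM (-0.30 ± 0.06, adjusted p = 0.0009). None of these 4 overlapped with Pop. VARS2 was 45.2, 43.1 and 50.4 CPM against 25.9, 26.3 and 24.8 CPM (0.85 ± 0.08, adjusted p = 3.4e-06), and AARS2 was 46.4, 44.1 and 43.2 CPM against 23.8, 27.7 and 29.4 CPM (0.72 ± 0.09, adjusted p = 2.9e-05). YARS2 was 18.5, 18.8 and 18.8 CPM (-0.54 ± 0.08, adjusted p = 0.00014), so it was below Pop in all 3 lineages. The windows of VARS, VARS2 and AARS2 were at 0.42, 0.42 and 0.44. The cytosolic falls came to 3 without lineage 13 replicate 1 and with the compared groups alone, the cytosolic rises to 5 without Pop replicate 1, and the mitochondrial falls to 1 without lineage 13 replicate 2.

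**Figure D5:**
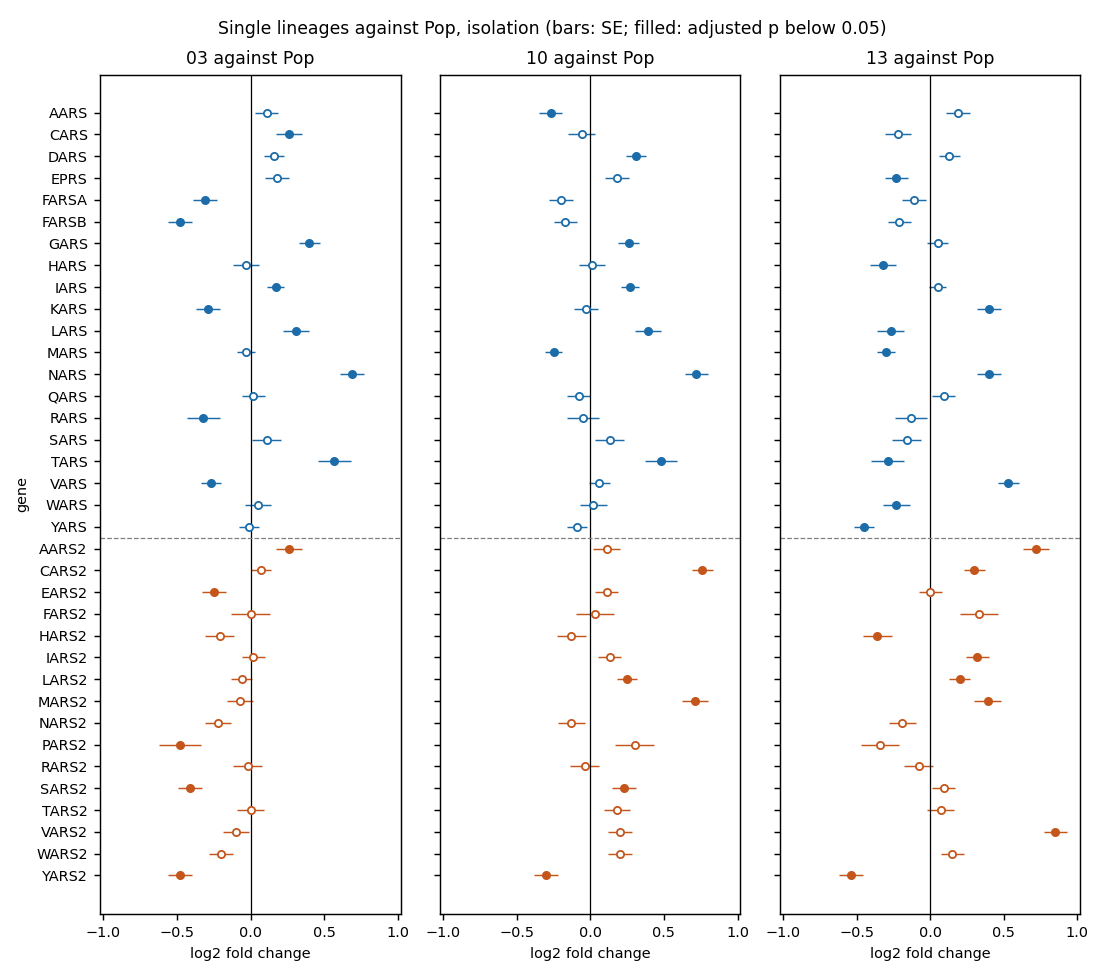
Log2 fold change of 36 members in lineages 03, 10 and 13 against Pop, with its SE, in blue for cytosolic and orange for mitochondrial members. Filled points have an adjusted p under 0.05. NARS is higher in all 3 panels, and VARS2 reaches 0.85 in lineage 13.

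The mitochondrial share of the family's CPM was 11.1% to 12.4% in lineage 03, 13.4% to 13.8% in Pop, 13.8% to 14.0% in lineage 10 and 15.9% to 16.1% in lineage 13. Lineage 03 lay below and lineage 13 above Pop in every library. Set against lineage 13, lineage 03 had 11 cytosolic members higher and 3 lower and 0 mitochondrial members higher and 10 lower (53.2% of all genes called, 26.1% higher and 27.1% lower). Its medians were 0.27 and -0.26. TARS (0.86) and LARS (0.59) led the cytosolic members that were higher in lineage 03, and VARS2 (-0.94) and SARS2 (-0.50) were among the mitochondrial members that were lower. Lineage 03 against 10 had 3 cytosolic members higher and 3 lower and 0 mitochondrial members higher and 9 lower (51.4% called, 26.4% and 25.0%), led by PARS2 (-0.78) and MARS2 (-0.77). Lineage 10 against 13 had 13 cytosolic and 6 mitochondrial members called (34.6% of all genes). Of all called members, 13 of 16 in lineage 03, 13 of 14 in lineage 10 and 17 of 19 in lineage 13 had the sign of their window against Pop, against 64.9%, 71.8% and 73.4% of all genes called.

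For 14 amino acids the members include a cytosolic and a mitochondrial enzyme with the same letter. Both enzymes of a pair were called in the same direction for 3 amino acids and in opposite directions for 2 (valine and tryptophan) in co-cultured against isolated lineage 22. In lineage 35 it was 3 and 6, the opposite pairs including those of alanine, isoleucine, asparagine, serine and threonine. In lineage 45 it was 5 and 1 (valine), and the latter rests on the VARS2 call already described as lost in most alternatives and on that of VARS, lost without isolation replicate 2, co-culture replicate 2 or co-culture replicate 3 and with the compared groups alone. In lineage 03 against 13 it was 1 and 5. Lineage 03 against 10 had 1 and 2, and 10 against 13 had 3 and 0. Against Pop it was 0 and 0, 2 and 1, and 3 and 2 in lineages 03, 10 and 13. In lineage 35 the isoleucine and threonine pairs rest on IARS2 and TARS2, whose calls were lost in several alternatives, as described. The lineage 45 pairs of cysteine, asparagine, threonine and tyrosine, called in the same direction, include calls lost with some single libraries left out. These were CARS, NARS, NARS2, TARS, TARS2 and YARS2. In lineage 13 the opposite leucine pair rests on LARS and LARS2, both lost with the compared groups alone and with some single libraries left out. Over all genes 56.9%, 65.5% and 41.8% were called in co-cultured lineages 22, 35 and 45, and 53.2% in lineage 03 against 13. No rate for pairs of other genes stands beside these counts.

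By structural class, the 18 class I enzymes had 10 rises and 2 falls when lineage 22 was co-cultured, 8 and 4 for lineage 35, and 11 and 1 for lineage 45. The 18 class II enzymes had 12 and 0, 9 and 6, and 11 and 0. Over all genes 27.0%, 32.7% and 18.6% rose and 30.0%, 32.9% and 23.2% fell in the same comparisons. The class I rises came to 5, 5 and 4 without lineage 35 isolation replicate 2, co-culture replicate 1 and co-culture replicate 2, and to 5, 7 and 6 without lineage 45 isolation replicate 2, isolation replicate 3 and co-culture replicate 2. The class II rises in lineage 45 came to 6 without isolation replicate 1, isolation replicate 2 or co-culture replicate 2, and the class I fall there (VARS2) was lost with 5 of the 6 libraries left out. EPRS has domains of both classes and was counted in neither. The 8 enzymes of the multisynthetase complex had 5 rises and 0 falls, 5 and 2, and 6 and 0 in lineages 22, 35 and 45, and the 12 cytosolic enzymes outside it 8 and 1, 6 and 3, and 8 and 0. Without lineage 45 isolation replicate 2 the complex had 3 rises and the others 3, and without co-culture replicate 2 the others also had 3. The counts of 0 were also 0 at an unadjusted edgeR p under 0.05 and under DESeq2. Of the 3 scaffolds, AIMP2 (0.57) and EEF1E1 (0.30) rose in lineage 22. In lineage 35 AIMP2 rose (0.19) and EEF1E1 fell (-0.43), and in lineage 45 EEF1E1 rose (0.47). All 3 scaffolds were lower in lineage 03 than in Pop (-0.23 to -0.34), though none was called without lineage 03 replicate 2 or 3 or without Pop replicate 1, and 1 was without Pop replicate 2. The rise of AIMP2 in lineage 35 was lost without isolation replicate 2 or 3 or without co-culture replicate 1 or 2.

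The elongation factors, which bring charged transfer RNAs to the ribosome or recharge the factors that do, were counted with the same rule. Of the 6 genes, 6 rose in lineage 22, 4 in lineage 35 and 5 in lineage 45, and 0 fell, with medians of 0.66, 0.35 and 0.38. Over all genes 27.0%, 32.7% and 18.6% rose and 30.0%, 32.9% and 23.2% fell in these comparisons. EEF1A1, the cytosolic factor that carries charged transfer RNA, was not called in lineage 35 (-0.06, adjusted p = 0.529). EEF1G, a subunit of the cytosolic exchange factor, rose by 0.86, 0.90 and 0.51, and the mitochondrial factors TUFM (0.69, 0.23 and 0.36) and TSFM (0.46, 1.01 and 0.34) rose in each lineage. Of the 4 genes of mitochondrial amidation and formylation, GATB rose in lineages 22 (0.33) and 45 (0.55), and in lineage 35 GATC rose (0.15) while MTFMT fell (-0.41). The call of GATC was lost without a filter, with the stricter filter, with the replicate block, with the compared groups alone and with 5 of the 6 libraries left out, and that of TUFM in lineage 35 with 3 of the 6 left out (isolation replicates 1 and 2 and co-culture replicate 1). XPOT, which exports transfer RNA from the nucleus, rose in lineage 35 (0.44) and was lower than Pop in lineages 03 (-0.37) and 13 (-0.45). Of 7 editing and related genes, 3 rose and 2 fell in lineage 22, 3 rose in lineage 35 and 1 rose in lineage 45. The 2 falls came to 1 with 5 of the 6 libraries left out in turn, and the 1 rise in lineage 45 became 2 without co-culture replicate 1 or 3. Neither the elongation nor the editing list had a fall in the lineages where none is given here, at an unadjusted edgeR p under 0.05 or under DESeq2.

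Of the cytosolic members, 13 were listed as linked to ATF4. Over all genes, 27.0%, 32.7% and 18.6% were called higher in co-cultured lineages 22, 35 and 45 and 30.0%, 32.9% and 23.2% lower, and 23.2%, 18.8% and 21.0% were higher than Pop in lineages 03, 10 and 13 and 25.5%, 23.5% and 24.2% lower. In co-culture the linked members had 7 rises and 1 fall (lineage 22), 8 and 3 (lineage 35), and 10 and 0 (lineage 45), and the 7 other cytosolic members had 6 and 0, 3 and 2, and 4 and 0. The counts of 0 were also 0 at an unadjusted edgeR p under 0.05 and under DESeq2. Against Pop the linked members had 6 higher and 1 lower (lineage 03), 5 and 2 (lineage 10), and 2 and 6 (lineage 13), and the others 0 and 4, 1 and 0, and 1 and 1. Among the others DARS was higher in lineage 03 at an unadjusted edgeR p under 0.05 and under DESeq2, and FARSA was lower in lineage 10 at an unadjusted p alone. The 10 linked rises in lineage 45 came to 4 without isolation replicate 2 and 5 without co-culture replicate 2, and the 4 of the others to 2 without either of these or without isolation replicate 1. Against Pop, the count of 0 higher among the others in lineage 03 became 1 without Pop replicate 1, and the 0 lower in lineage 10 became 2 without Pop replicate 3. The others' 1 higher in lineage 13 became 2 without Pop replicate 1, and their 1 lower became 2 without Pop replicate 3 or lineage 13 replicate 3. The 6 linked members lower in lineage 13 came to 2 without its replicate 1 and 3 without its replicate 3, and the 2 lower in lineage 10 to 1 without its replicate 3. Of the 6 cytosolic members with the response element letters in the promoter, AARS and IARS were called higher in co-cultured lineage 22, AARS, CARS, IARS and MARS were called higher and NARS and TARS lower in lineage 35, and all 6 were called higher in lineage 45. Without lineage 45 isolation replicate 2, or without its co-culture replicate 2, the 6 came to 2, AARS and IARS. The 10 cytosolic members with a promoter entry and without these letters had 9 rises and 1 fall, 7 and 1, and 5 rises with no fall called in lineage 45. The 5 came to 2 without lineage 45 isolation replicate 2 and to 3 without its isolation replicate 1 or co-culture replicate 2. Of 17 genes of the ATF4 pathway, lineage 22 had 5 rises and 4 falls, lineage 35 had 13 and 1, and lineage 45 had 8 and 1. ATF4 itself rose by 0.42, 0.78 and 0.34, the last lost without lineage 45 isolation replicate 2 (adjusted p = 0.073), and in lineage 35 its values were 292, 271 and 224 CPM in isolation and 465, 473 and 416 CPM in co-culture. Against Pop the pathway had 4 higher and 6 lower, 3 and 5, and 4 and 8. The 6 lower in lineage 03 came to 3 without its replicate 3 or without Pop replicate 3, and the 5 in lineage 10 to 3 without its replicate 3. The 1 fall in co-cultured lineage 35 (SLC7A5) became 2 without isolation replicate 3, and the 1 in lineage 45 (STC2) was lost without isolation replicate 2 or without co-culture replicate 1.

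WARS was read beside 10 genes of the interferon-gamma response. Of these, 9 fell in lineage 22, 8 in lineage 35 and 7 in lineage 45, and none rose (also at an unadjusted edgeR p under 0.05 and under DESeq2), with medians of -1.27, -1.08 and -1.26. Over all genes 30.0%, 32.9% and 23.2% fell in these comparisons. WARS fell in lineage 22 (-0.42) but rose in lineage 35 (0.20, adjusted p = 0.0289) and was not called in lineage 45. The rise in lineage 35 was lost without isolation replicate 1 or 3 or without co-culture replicate 1 or 2 (adjusted p = 0.066 to 0.097). Against Pop, 9 of the 10 could be tested, and 8 were higher in lineage 03, against 23.2% of all genes, and WARS was not called there. WARS was called lower than Pop in lineage 13. That call was lost without a filter and with the compared groups alone. It was also lost without lineage 13 replicate 1 or 3 or without Pop replicate 2 or 3.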

How the data were processed

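The deposited tables hold length-scaled estimated counts per gene, made by the authors. The submitters' processing notes name STAR 2.6.1d, Salmon 1.4.0 and GRCh38/hg38, and what did the length scaling is not given in the sources used here. Libraries were stranded mRNA libraries from 500 ng of RNA, sequenced as pairs of 75 nt, per the labels' protocols. Dates stood in place of 28 gene names in the second table, 0 of them members, and 0 value columns had no sample.

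Estimated counts were rounded, filtered with filterByExpr (14570 and 14638 genes tested), TMM-normalised and fitted with edgeR 4.0.16 (R 4.3.3, limma 3.58.1; quasi-likelihood, robust) over all groups of a table, with Benjamini-Hochberg adjustment at 0.05 over all genes tested. The common dispersion gave a coefficient of variation of 10.4% in both tables. The scripts were tested on simulated data, with 50 genes changed at each size, far fewer than were called in the data. Of 1.25-fold changes 10% were recovered in the first table and 6% in the second. Of 1.5-fold changes it was 70% and 66%, and of 2-fold changes 88% and 92%, with 5 and 4 false calls. A member that was not called may therefore still differ by a small amount. Alternatives were DESeq2 1.42.0, RLE factors, no filter, a filter of 5 CPM in 3 libraries, a replicate block, the compared groups alone and each library left out. The fit without the libraries of lineage 35 in co-culture was chosen after seeing the data.

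Members and lists were chosen with earlier results of these data known. Library values were given for up to 4 cytosolic and 3 mitochondrial members with the smallest p in each co-culture and Pop comparison, and for those differing at least 2-fold between lineages, and any member could be named. The values of 1 member are not reported here, but it stays in the counts, sums and medians. Library values printed beyond this rule (such as EPRS in lineages 22 and 45) were added after they were seen. Same-numbered libraries deviated together in co-cultured lineages 22 and 45 (r = 0.36, 0.253 and 0.166 over all genes tested), where the replicate numbers in the titles were taken as pairs, and in no other pair of groups.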

Additional observations from a re-analysis of the deposited data

Results flagged for a closer look

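The response to co-culture was not the same over lineages 22, 35 and 45 for 23 of the 37 members by the edgeR interaction test, where 55.2% of all genes tested were called. The adjusted p was 6.1e-09 for VARS2, 8.8e-08 for SARS2, 1e-07 for VARS, 8.9e-07 for AARS2, 9.4e-07 for NARS and 1.6e-05 for DARS. It was 7.7e-05 for QARS, 0.00011 for FARS2, 0.00014 for MARS, 0.00034 for WARS, 0.00068 for AARS and 0.00074 for IARS2. For TARS, CARS, YARS2, CARS2, LARS2 and FARSA it was 0.0011, 0.0015, 0.0021, 0.0044, 0.0053 and 0.0066. EPRS (0.013), YARS (0.016), GARS (0.042), NARS2 (0.043) and WARS2 (0.048) were nearer the threshold. These tests rest on the libraries labelled lineage 35 in co-culture, which correlated less with their own isolated lineage (mean r = 0.924) than with isolated lineage 45 (0.964). They also rest on isolated lineage 35, which correlated at 0.942 with isolated and 0.927 with co-cultured lineage 45.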

How the results depend on the processing

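None of the values recomputed reversed its direction. Of the 126 member calls in the co-culture and Pop comparisons, 1 was lost under DESeq2, 2 with RLE factors, 11 without a filter, 6 with the stricter filter, 5 with the replicate block, 23 with the compared groups alone and 38 with at least 1 library left out. The counts that left the 1.5-fold range were these. In lineage 35 the mitochondrial rises came to 4 without a filter (7 in the fit reported). In lineage 45 the mitochondrial falls came to 0 under DESeq2, RLE factors, no filter, the compared groups alone and without the co-cultured lineage 35 (1 reported). The cytosolic calls between co-cultured lineages 22 and 45 came to 5 under DESeq2 and 1 with the compared groups alone (3 reported), and those between co-cultured 35 and 45 to 3 with the compared groups alone (7 reported), where the mitochondrial calls came to 0 with the compared groups alone and without a filter (1 reported). With the compared groups alone, mitochondrial rises came to 0 in lineage 03 and 3 in lineage 10, and cytosolic falls to 3 in lineage 13. The causes were not tested.

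With 1 library left out, the ranges in co-culture against isolation were 4 to 6 mitochondrial rises and 3 to 4 mitochondrial falls in lineage 35, and 6 to 12 cytosolic rises, 4 to 7 mitochondrial rises and 0 to 1 mitochondrial falls in lineage 45. Between co-cultured lineages 35 and 45 they were 3 to 7 cytosolic and 0 to 1 mitochondrial calls. Against Pop they were 0 to 1 mitochondrial rises in lineage 03. In lineage 10 they were 1 to 4 cytosolic falls, 3 to 8 mitochondrial rises and 0 to 1 mitochondrial falls. In lineage 13 they were 3 to 5 cytosolic rises, 3 to 8 cytosolic falls and 1 to 3 mitochondrial falls. Leaving a library out also lowers the number of samples in the fit.

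With the replicate block, lineage 22 had 13 cytosolic rises and 1 fall with 10 mitochondrial rises and 1 fall, and co-cultured lineages 22 and 45 differed in 4 cytosolic and 6 mitochondrial members. The block moved no count beyond the 1.5-fold range. IARS2 (adjusted p = 0.055) and RARS2 (0.054) in lineage 35, IARS in lineage 03 (0.068), SARS2 in lineage 10 (0.053) and LARS2 in lineage 13 (0.054) lost their calls under it. Another scaling moved the median of all genes by at most 0.037 on the log2 scale. DESeq2 and the fit of the compared groups alone gave no test over the 3 lineages together.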
